A study of Mus musculus with 6 samples.

Results

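Imprinted genes were followed in hippocampus RNA of wild-type (WT) and Prmt9 knockout (KO) mice. The set was a list of 41 gene symbols in 16 clusters. It was chosen by name and by no value measured here, though with earlier results of these data known. The symbols were matched through the GENCODE M21 annotation of the GRCm38 mouse genome to the genes and transcripts quantified, and 34 of the 41 had values among the 36008 genes in all. The other 7, H19, Meg3, Rian, Mirg, Snhg14, Peg13 and Airn, were not analysed here. They are noncoding RNAs of 5 of the clusters, and every one of the 16 clusters kept at least 1 measured gene.

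The study compared 3 WT and 3 Prmt9 KO mice, all female littermates of strain B6J, 2 weeks old, by sequencing poly(A) RNA of the hippocampus. Prmt9 encodes an arginine methyltransferase whose substrate is the splicing factor SF3B2. The KO mice lacked Prmt9 in the whole body from the germline on, through a CMV-Cre transgene acting on a loxP-flanked exon, so that a difference could arise in any cell type or before birth. Whether the WT littermates carried the Cre or loxP alleles is not given in the sources used here. Each library was 1 mouse.

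Imprinted genes are expressed from 1 parental allele. The choice is written as DNA methylation in the egg or sperm at an imprinting control region, which then sets the activity of a whole cluster. Many imprinted genes act in fetal growth, and in brain several of them take part in neuronal development, feeding and social behaviour. Loss of the paternal Snrpn region or of the maternal Ube3a allele underlies Prader-Willi and Angelman syndromes. All mice here were of 1 inbred strain, so the reads could not be assigned to a parent and each value is the sum of both alleles. Of the 34 measured genes, 18 were classed beforehand as paternally expressed, 6 as maternally expressed, and 10 as having an imprint that depends on tissue or transcript. The classes were not measured here, and the allele used in the cells of the hippocampus may differ from them.

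Gnas illustrates how 1 cluster holds starts of opposite imprint. It encodes the stimulatory G protein subunit Gs-alpha. Its most upstream start gives the maternal Nesp transcript, the next the paternal XL form, then comes the paternal noncoding exon 1A transcript, and the last gives Gs-alpha, which uses both alleles in most tissues. RefSeq promoter windows (GRCm38.p6, 250 bases before to 50 bases after the start, read 5′ to 3′ on the + strand) are shown for the Nesp, exon 1A and Gs-alpha starts because the transcripts that begin there differed widely in level. Capitals mark CG dinucleotides, the sites at which methylation imprints are carried.
Nesp start, chr2:174284070-174284369: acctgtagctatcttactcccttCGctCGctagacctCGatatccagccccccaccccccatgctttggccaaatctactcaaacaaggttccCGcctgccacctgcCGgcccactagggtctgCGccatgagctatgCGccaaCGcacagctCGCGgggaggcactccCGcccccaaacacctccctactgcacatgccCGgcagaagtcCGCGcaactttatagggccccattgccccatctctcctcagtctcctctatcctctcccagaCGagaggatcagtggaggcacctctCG
Exon 1A start, chr2:174327499-174327798: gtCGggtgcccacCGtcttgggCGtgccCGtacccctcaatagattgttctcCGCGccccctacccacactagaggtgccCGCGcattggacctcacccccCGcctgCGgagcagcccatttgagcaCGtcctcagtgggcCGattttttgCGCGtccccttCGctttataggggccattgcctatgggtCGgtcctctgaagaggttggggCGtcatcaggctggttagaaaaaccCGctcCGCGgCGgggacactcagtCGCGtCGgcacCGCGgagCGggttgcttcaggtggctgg
Gs-alpha start, chr2:174329756-174330055: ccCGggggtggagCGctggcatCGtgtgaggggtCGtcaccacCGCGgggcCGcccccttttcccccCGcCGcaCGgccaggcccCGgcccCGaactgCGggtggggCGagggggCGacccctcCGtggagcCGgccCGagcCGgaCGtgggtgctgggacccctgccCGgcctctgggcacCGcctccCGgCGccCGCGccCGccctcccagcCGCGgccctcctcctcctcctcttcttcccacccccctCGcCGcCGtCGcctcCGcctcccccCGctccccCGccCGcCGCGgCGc
The windows hold 16, 27 and 40 CG dinucleotides, in that order. In WT, transcripts with these starts summed to 1.23, 75.4 and 900.0 TPM (the deposited measure of level, per transcript length and library size). A further 249 to 349 TPM of Gnas per WT mouse lay in transcripts that could not be placed at any start. A window with at least 40 CG dinucleotides was found in 3.91% of all 32851 windows.

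Peg3 and Usp29, both paternal, have main coding transcripts that start 162 bases apart on opposite strands and share their imprinted promoter. Peg3 encodes a zinc finger protein involved in maternal behaviour and growth, Usp29 a ubiquitin-specific protease. The windows of the pair overlap by 263 bases and are shown with that of Nnat, a paternal gene of another cluster. Nnat encodes neuronatin, a small membrane proteolipid of developing neurons, and lies inside an intron of Blcap. Blcap-204, a Blcap transcript on the other strand, also starts inside the Nnat window and lay between 1.44 and 6.54 TPM. Capitals again mark CG.
Peg3, − strand, chr7:6730370-6730669: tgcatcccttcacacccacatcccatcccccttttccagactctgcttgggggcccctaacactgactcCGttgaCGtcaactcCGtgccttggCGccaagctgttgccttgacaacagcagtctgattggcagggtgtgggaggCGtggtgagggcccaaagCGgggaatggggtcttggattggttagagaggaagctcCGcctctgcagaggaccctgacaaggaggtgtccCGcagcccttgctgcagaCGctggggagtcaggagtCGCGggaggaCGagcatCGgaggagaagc
Usp29, + strand, chr7:6730333-6730632: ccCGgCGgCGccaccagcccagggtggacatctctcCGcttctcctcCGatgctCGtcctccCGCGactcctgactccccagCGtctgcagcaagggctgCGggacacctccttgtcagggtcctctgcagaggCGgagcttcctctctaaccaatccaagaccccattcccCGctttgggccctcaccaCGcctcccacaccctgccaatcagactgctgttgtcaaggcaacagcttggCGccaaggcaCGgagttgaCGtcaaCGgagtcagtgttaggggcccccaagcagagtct
Nnat, + strand, chr2:157559828-157560127: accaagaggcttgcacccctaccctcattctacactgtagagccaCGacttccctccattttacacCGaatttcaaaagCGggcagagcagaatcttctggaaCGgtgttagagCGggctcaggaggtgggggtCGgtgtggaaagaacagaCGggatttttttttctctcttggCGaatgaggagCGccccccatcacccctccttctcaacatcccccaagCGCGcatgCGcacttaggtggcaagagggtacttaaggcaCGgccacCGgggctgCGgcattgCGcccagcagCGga
The counts of CG were 13 for Peg3, 17 for Usp29 and 17 for Nnat. RefSeq windows were matched for 28 of the 34 measured genes (43 windows), with a median of 15 CG against 7 over all windows. The hexamer TGCCGC, the core of the motif of the imprint-keeping factor ZFP57, was searched on both strands (GCGGCA on the other) and occurred in 11 of the 43 windows (25.6%) and in 11.6% of all windows. The 11 windows belonged to 10 genes, since overlapping windows of Mest were each counted. The imprinted windows were also richer in G and C (median 57.3% against 52.7%), and no difference was tested.

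Rtl1, a retrotransposon-derived gene of placenta and muscle, is read on the − strand of chromosome 12, opposite to maternal microRNAs. Of 13 mature microRNAs that RefSeq places within the gene, 11 were an exact reverse complement of part of the 6358-base Rtl1 transcript. A pair of them are shown, with the seed (bases 2 to 8) in capitals, because the strand setting of the quantification is not given in the sources used here.
miR-127-3p: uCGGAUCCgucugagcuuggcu
miR-433-3p: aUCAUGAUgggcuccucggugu
Their complementary sites lie at bases 2642.0 to 2663.0 and 3749.0 to 3770.0 of the transcript. MicroRNAs were not measured. The library kit was stranded, but whether reads of their precursor were counted for Rtl1 is not known without that setting.

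The libraries held 194098391 (WT mouse 1) to 286771677 estimated counts, and 37.4% of transcripts had no count in WT mouse 1 against 22.8% to 24.8% in the other mice. Prmt9 itself stood at 11.78, 15.25 and 14.96 TPM in WT mice 1, 2 and 3, and at 3.93, 4.61 and 4.67 TPM in KO mice 1, 2 and 3. The groups did not overlap, and KO mice kept 31.5% of the WT mean (log2 fold change −1.71 ± 0.10 (SE), edgeR adjusted p = 0.0327, above the limit of 0.01 used for calls). All 12 markers of hippocampal excitatory neurons were at 1 TPM or more in every mouse. The mice numbered 1 stood apart from the other 4 in both genotypes. The summed level of 8 oligodendrocyte lineage markers was 2126 TPM in WT mouse 1 and 1194 TPM in KO mouse 1 against 7292 to 10421 TPM in the others. That of the 12 excitatory neuron markers was 1961 and 2045 against 3089 to 3281 TPM. The latter sum follows its highest genes, among them Camk2a (776 and 816 against 1640 to 1704 TPM). Neurod6 (123 and 148 against 114 to 132 TPM), Spink8 and Fibcd1 did not lie below the others in both mice numbered 1, while the remaining excitatory markers did. Summed choroid plexus markers (12 genes, none at 0) ranged from 839 to 7743 TPM in WT and from 968 to 3850 TPM in KO, and blood markers (5 genes) from 2553 to 6334 TPM in WT and from 1036 to 3275 TPM in KO. Meningeal and fibroblast, endothelial and mural, inhibitory neuron, thalamic, astrocyte and microglial sums, and those of hypothalamic and monoamine neurons, also overlapped between the genotypes. At an unadjusted edgeR p below 0.05, 2 of the 5 blood markers, Hbb-bs and Hbb-bt, were lower in KO (0.448% of all genes) and 1 of the 12 meningeal markers, Aldh1a2, was higher (0.787% of all genes). No other marker of these lists passed that limit. With the replicate number of the mice as a block, all 5 blood markers were lower in KO at that limit (3.16% of all genes, log2 fold changes −1.07 to −1.37, smallest edgeR adjusted p = 0.791), and their summed level was lower in each KO mouse than in the WT mouse of its number. With the block 2 of the 8 oligodendrocyte markers (Mog and Cnp) and 1 marker each of meninges (Lum), mural cells (Pdgfrb), excitatory neurons (C1ql2), astrocytes (Aqp4) and microglia (P2ry12) were also lower, and Aldh1a2 was higher (2.58% of all genes). The part of these differences in the levels of imprinted genes was not tested. In tissue RNA, fewer cells of a type and less RNA per cell cannot be told apart.

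**Figure D1:**
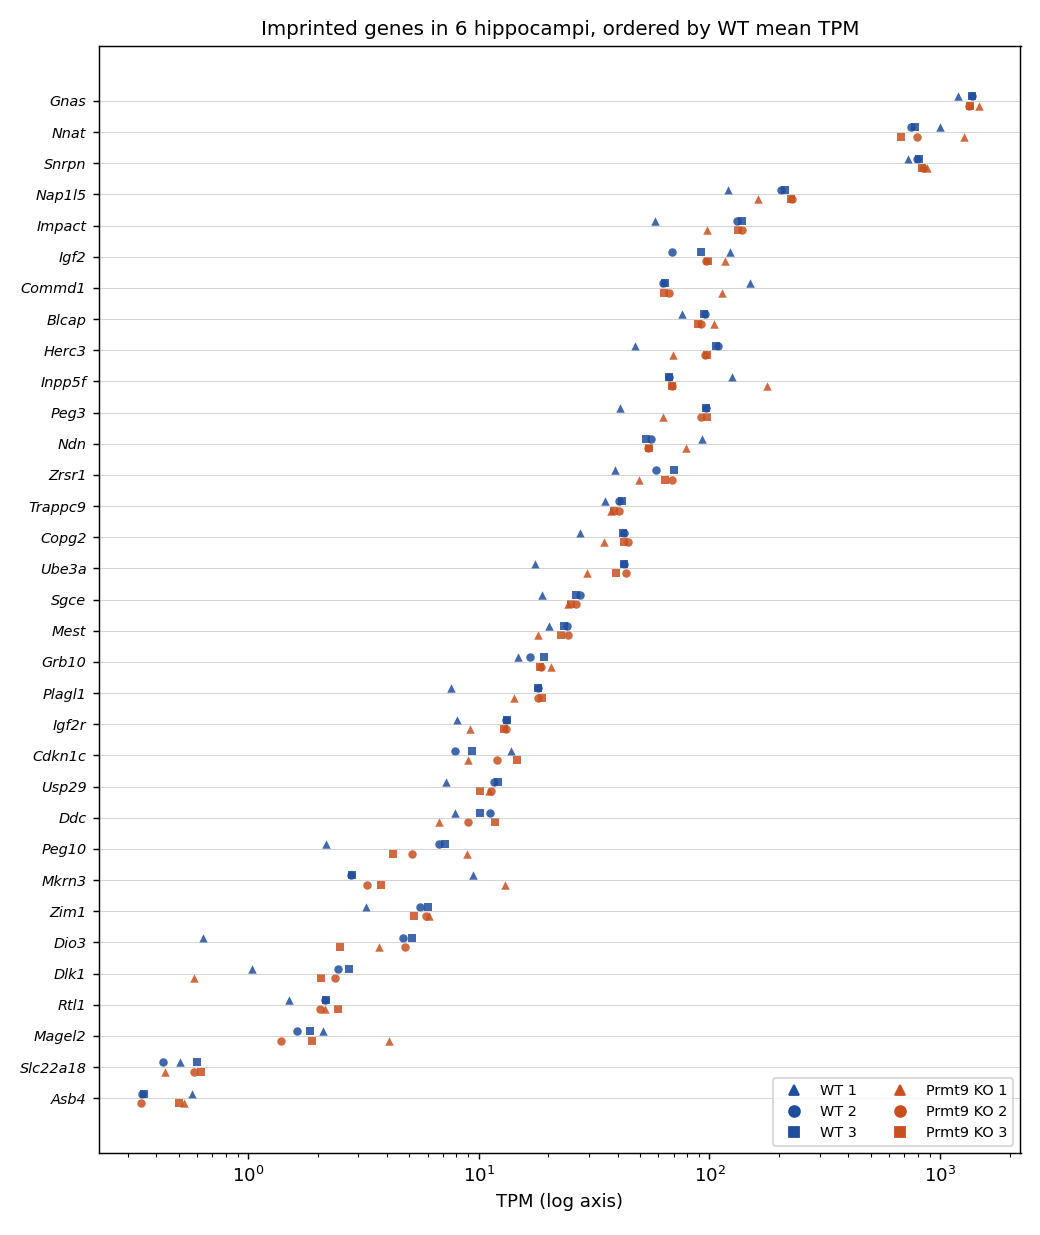
Levels of 33 imprinted genes in TPM on a log axis, 1 point per mouse, WT in blue and Prmt9 KO in orange, ordered by WT mean. Phlda2, at most 0.148 TPM, is left out. Levels ran from 0.423 TPM (Asb4) to 1313 TPM (Gnas), and the triangles (mice numbered 1) often lie apart from the other mice.

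The imprinted genes spanned the range of expression in hippocampus. By WT mean, 5 were at 100 TPM or more, 18 at 10 to 100, 8 at 1 to 10 and 3 below 1 TPM, and 13 ranked within the top 10% of all genes. The highest was Gnas at 1313 ± 103 TPM (SD, n = 3), followed by Nnat at 841 ± 138 and Snrpn at 778 ± 44.6 TPM. Nnat and Snrpn did not differ beyond their spread. Nap1l5 (179 ± 50.9) and Impact (109 ± 44.3) came next. Their ranges overlapped between mice, but Nap1l5 was the higher of the pair within every mouse. The lowest were Slc22a18, Asb4 and Phlda2, a placental growth inhibitor that no mouse expressed above 0.148 TPM and that failed the filter on low counts. The remaining 33 genes were tested.

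No imprinted gene was called between the genotypes. To be called, a gene had to change by more than 1.5-fold with an adjusted p under 0.01 (edgeR, quasi-likelihood F test, Benjamini-Hochberg over 20335 genes). None of the 33 passed, against 0.0% of all genes. At an unadjusted p below 0.05 the count was also 0 of 33 against 1.23% of all genes. DESeq2 also gave 0 at either limit, against 0.00708% and 1.86% of all genes. The log2 fold changes (KO minus WT) ran from −0.39 (Dlk1) to 0.33 (Magel2) with a median of 0.05, and the median standard error was 0.19. The median over all genes was −0.01. Values above 0 were found for 23 of 33 imprinted genes and 46.9% of all genes. By class, they were found for 15 of the 18 genes classed as paternally and 3 of 5 classed as maternally expressed. In the class whose imprint depends on tissue or transcript, they were found for 5 of 10.

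**Figure D2:**
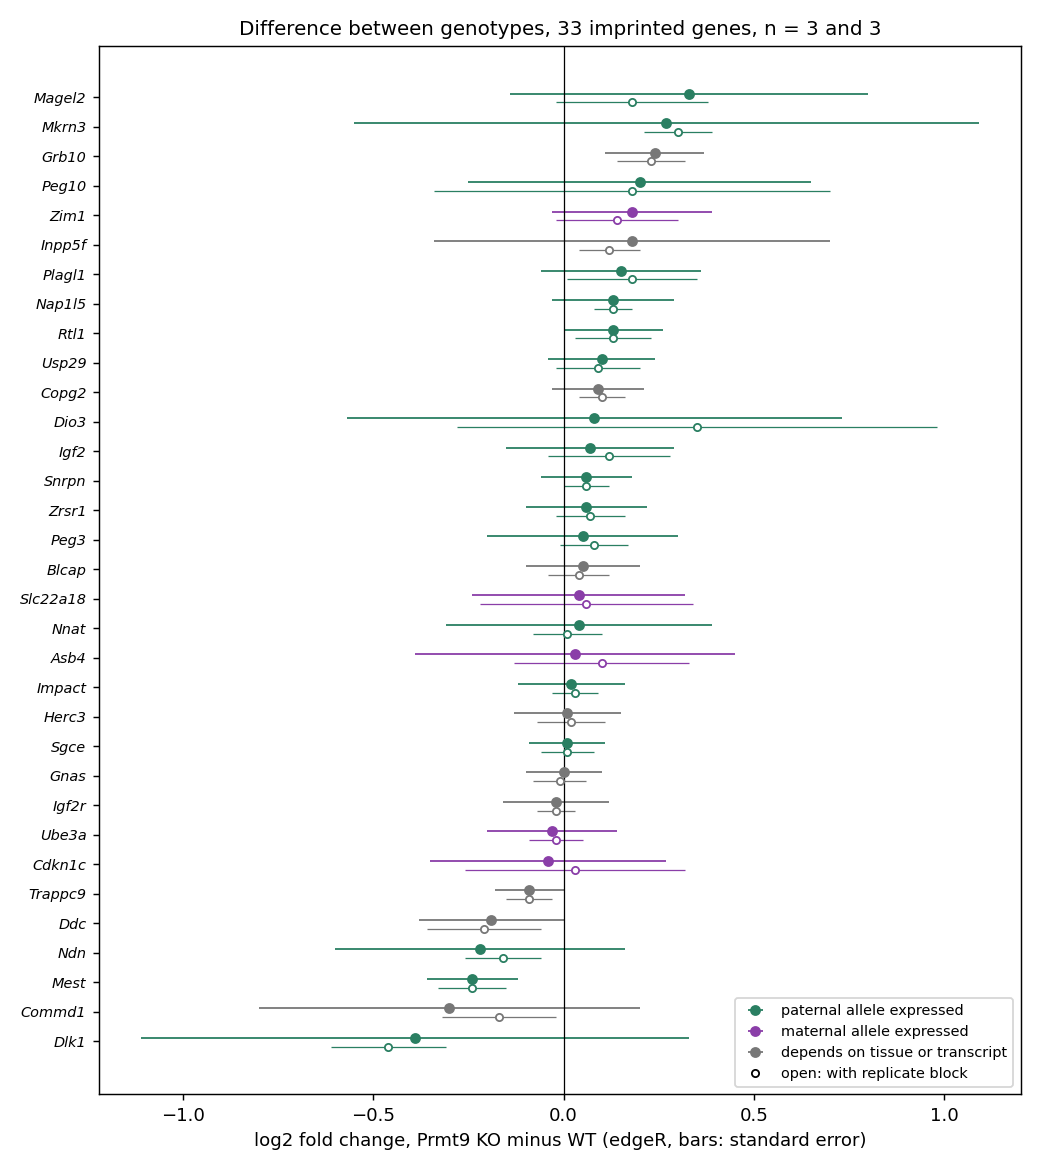
Log2 fold change of each of the 33 tested imprinted genes (Prmt9 KO minus WT, edgeR, bars are standard errors), filled without and open with the replicate number as a block. Estimates lie between −0.39 and 0.33 without the block, and the bars of Magel2, Mkrn3, Ndn and Inpp5f shorten with it.

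With the replicate number as a block, the calls were again 0, but 4 of the 33 genes reached an unadjusted p below 0.05 (5.73% of all genes did), 2 lower and 2 higher. Dlk1, a Notch-like growth regulator, had a log2 fold change of −0.46 ± 0.15 (SE) and Mest, an alpha/beta hydrolase of mesoderm and brain, of −0.24 ± 0.09. Grb10, an adaptor that dampens insulin signalling, had 0.23 ± 0.09 and Mkrn3, a ubiquitin ligase that restrains puberty, 0.30 ± 0.09. Their edgeR adjusted p with the block was 0.791 each. Dlk1 stood at 1.04, 2.46 and 2.74 TPM in WT and at 0.582, 2.38 and 2.07 TPM in KO mice 1, 2 and 3. Each KO mouse lay below the WT mouse of its number, while the groups overlapped. Mkrn3 stood at 9.42, 2.79 and 2.83 TPM in WT and at 13, 3.28 and 3.75 TPM in KO, with both mice numbered 1 far above the rest. Mest and Grb10 are described with their clusters. With a term for mouse 1 against the other mice in place of the block, 0 of the 33 were called (0.00492% of all genes) and Nap1l5 joined the 4 at an unadjusted p below 0.05 (9.71% of all genes).

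The difference between mouse 1 and the others of its genotype was larger than the difference between genotypes for many imprinted genes. In 14 of 33 genes both mice numbered 1 lay below the other 4 (45.8% of all genes), and in 8 of 33 both lay above (19%). Peg3, Impact, Ube3a, Plagl1, Herc3 and Nap1l5 were among the 14, and Asb4, Commd1, Igf2, Inpp5f, Magel2, Mkrn3, Ndn and Nnat made up the 8. WT mouse 1 was the lowest of the 6 in 20 of 33 genes (55.9% of all genes) and the highest in 4 (16%). These counts were near the shares of all genes, so the pattern was not particular to imprinted genes. Over all genes, the log2 ratio of WT mouse 1 to WT mouse 2 fell with transcript length, from a median of 0.08 in the shortest of 6 length classes to −0.67 in the longest. For KO mouse 1 against KO mouse 2 it went from 0.11 to −0.29. The part of transcript length and cell makeup in these levels was not tested.

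**Figure D3:**
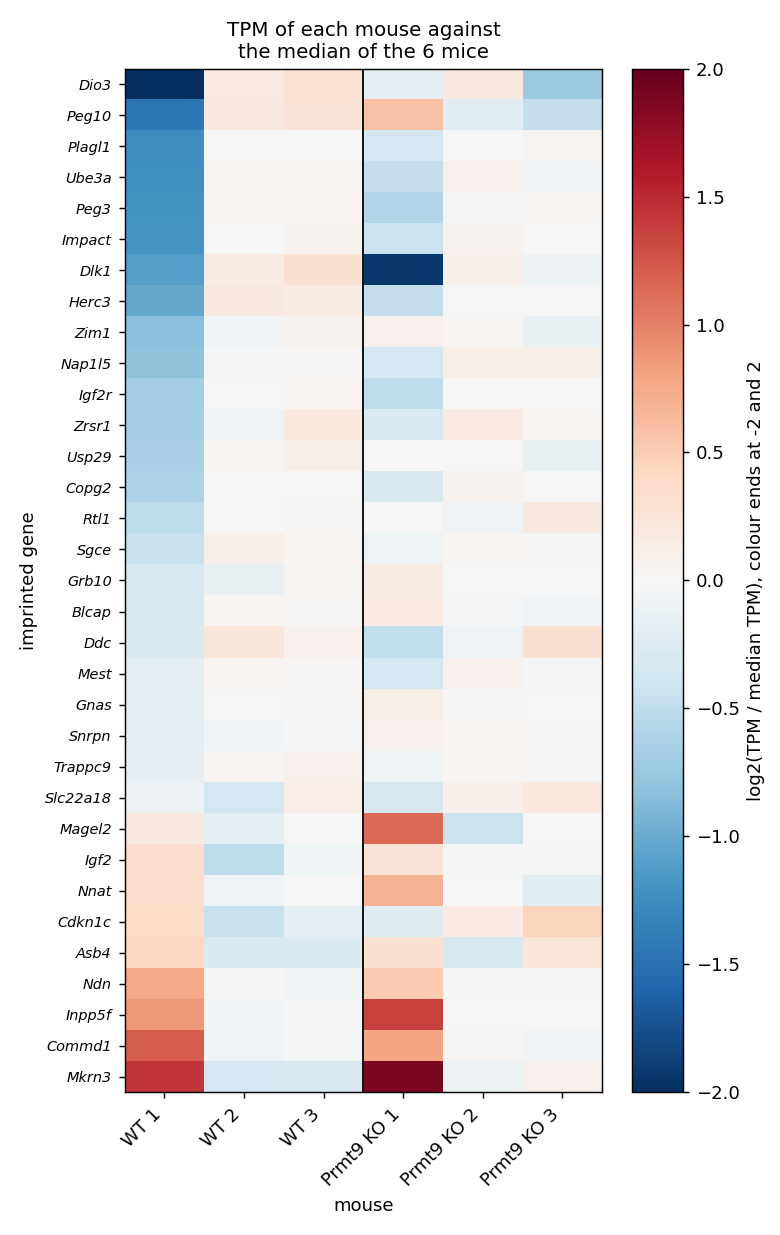
Log2 ratio of each mouse's TPM to the median of the 6 mice, for 33 imprinted genes (rows) and 6 mice (columns), red above and blue below the median, with genes sorted by WT mouse 1. WT mouse 1 and KO mouse 1 hold most of the strong colours, while the other 4 columns are pale.

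Among the growth regulators, Igf2, the paternal fetal growth factor, stood at 123, 68.7 and 91.7 TPM in WT mice 1, 2 and 3 and at 117, 96.1 and 98.6 TPM in KO mice. WT mouse 2 was lowest and the groups overlapped (log2 fold change 0.07 ± 0.22, edgeR adjusted p = 1.0). Igf2 is known in choroid plexus and meninges, whose marker sums were 7743, 839 and 2400 TPM and 175, 138 and 156 TPM in the WT mice, both also lowest in mouse 2. In KO mice they were 968, 2722 and 3850 TPM and 238, 158 and 141 TPM. In KO mouse 1, where the Igf2 gene level was highest among KO mice, the choroid plexus sum was lowest and the meningeal sum highest. That gene level includes the noncoding transcript Igf2-208, at 62.3, 30.9 and 29.1 TPM in KO mice. The coding transcripts led by Igf2-201 were instead lowest in KO mouse 1, at 50.5, 58.4 and 63.3 TPM in KO mice 1, 2 and 3. Ttr alone held 7157 of the 7743 TPM in WT mouse 1. The part of these tissues in the Igf2 level was not tested. Cdkn1c, the maternal inhibitor of the cell cycle in the same domain, stood at 13.8, 7.87 and 9.34 TPM in WT and 9.0, 12 and 14.6 TPM in KO. Igf2r, the receptor that clears IGF2, was at 8.08, 13.1 and 13.3 TPM in WT and 9.13, 13.1 and 12.9 TPM in KO. Mouse 1 was the lowest in each genotype and the groups overlapped (−0.02 ± 0.14). Plagl1, a zinc finger activator of other imprinted genes, was at 7.59, 18 and 18.1 TPM in WT and 14.2, 18.1 and 18.8 TPM in KO, mouse 1 again the lowest in each genotype. Grb10 was at 14.8, 16.7 and 19.2 TPM in WT and 20.6, 18.6 and 18.4 TPM in KO (0.24 ± 0.13, edgeR unadjusted p = 0.129). WT mouse 3 lay within the KO range. Its neighbour Ddc, which makes dopamine and serotonin, was at 6.75 to 11.8 TPM over the 6 mice.

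In the Dlk1-Dio3 cluster all measured genes were low. Dio3, which inactivates thyroid hormone, led it with 0.637, 4.71 and 5.14 TPM in WT and 3.71, 4.79 and 2.51 TPM in KO. WT mouse 1 was far below all others, and the log2 fold change was 0.08 ± 0.65. Rtl1 lay between 1.51 and 2.45 TPM.

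In the Prader-Willi and Angelman region Snrpn, which encodes the SmN splicing protein of neurons, was the only imprinted gene whose groups did not overlap in TPM (1 of 33, against 6.67% of all genes, 5.28% higher in KO). It stood at 727, 797 and 810 TPM in WT and at 878, 845 and 838 TPM in KO, every KO mouse above every WT mouse. The log2 fold change was 0.06 ± 0.12 (edgeR unadjusted p = 0.635). In CPM, counts scaled to library size, the Snrpn groups overlapped, and Mest was instead the only imprinted gene whose groups did not (7.01% of all genes). Snurf, the upstream reading frame of the same message, is annotated as a gene of its own with 691 to 898 TPM, so that the division of reads between it and Snrpn is uncertain. Ube3a, the maternal ubiquitin ligase, was at 17.5, 42.7 and 42.8 TPM in WT and 29.4, 43.4 and 39.4 TPM in KO. Mouse 1 was lowest in each genotype and the groups overlapped (−0.03 ± 0.17). Ndn and Magel2, related MAGE family genes of neurons, ranged from 53.2 to 92.9 and from 1.39 to 4.09 TPM.

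Nnat stood at 999, 747 and 778 TPM in WT and at 1270, 793 and 676 TPM in KO, mouse 1 highest in each genotype. The groups overlapped (0.04 ± 0.35). Its host Blcap, a small apoptosis-linked protein, was at 75.9, 96 and 94.9 TPM in WT and 105, 91.6 and 89.3 TPM in KO. Nnat was thus 7.57 to 13.2 times as high as Blcap. The main Nnat message of 2 exons, Nnat-205, held 520 ± 96.4 TPM in WT and 540 ± 175 TPM in KO, and the one of 3 exons, Nnat-202, which encodes the longer protein form, 246 ± 49.0 and 291 ± 124 TPM (SD, n = 3 each).

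Peg3 stood at 41.0, 96.9 and 96.4 TPM in WT and at 62.6, 92.1 and 97.3 TPM in KO. Usp29, from the shared promoter printed above, was at 7.17, 11.6 and 12.1 TPM in WT and 11.1, 11.3 and 10.1 TPM in KO, between 0.104 and 0.178 of the Peg3 level in the same mouse. Neither pair of groups separated. Their maternal neighbour Zim1 lay between 3.23 and 6.08 TPM. Peg10, a retrotransposon-derived gene, was at 2.17, 6.73 and 7.10 TPM in WT and 8.86, 5.13 and 4.26 TPM in KO. Sgce, the sarcoglycan mutated in myoclonus dystonia, has its main start 199 bases away on the other strand and was at 18.8, 27.5 and 26.3 TPM in WT and 24.3, 26.4 and 25.1 TPM in KO. Both overlapped, with WT mouse 1 the lowest of 6 in either gene. Their neighbour Asb4 lay between 0.343 and 0.570 TPM.

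Mest stood at 20.1, 24.1 and 23.4 TPM in WT and at 18.1, 24.4 and 22.8 TPM in KO, and had the smallest p of all members (−0.24 ± 0.12, edgeR unadjusted p = 0.0861, adjusted p = 1.0). With limma on log2(TPM + 1) its log2 fold change was −0.05. Copg2, a coatomer subunit read towards Mest from the other strand, was at 27.5, 42.4 and 42.2 TPM in WT and 34.8, 44.4 and 42.6 TPM in KO. The log2 ratio Mest/Copg2 was −0.45, −0.82 and −0.85 in WT and −0.95, −0.86 and −0.90 in KO. Every KO mouse lay below every WT mouse (difference −0.19, exact two-sided permutation test, p = 0.1, the smallest p that 3 against 3 mice allow, adjusted p = 0.8 over 8 pairs). Without WT mouse 1 the difference was −0.07. The genes overlap at their 3′ ends, and a read there could be counted for either.

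Several paternal genes lie within introns of another gene. Zrsr1, a retrogene of a splicing factor, stood at 38.8, 58.7 and 70.4 TPM in WT and at 49.7, 68.7 and 63.9 TPM in KO, mouse 1 the lowest in each. Its host Commd1, of copper and NF-kappa-B regulation, was at 150, 63.1 and 64.1 TPM in WT and 113, 66.7 and 63.3 TPM in KO, mouse 1 the highest in each. The log2 ratio Zrsr1/Commd1 was therefore −1.95 and −1.18 in the mice numbered 1 and between −0.10 and 0.13 in the others. Nap1l5, a nucleosome assembly protein retrogene, was at 120, 205 and 212 TPM in WT and 163, 227 and 226 TPM in KO. Its host Herc3, a ubiquitin ligase, was at 47.4, 109 and 107 TPM in WT and 69.3, 95.6 and 97.5 TPM in KO. Mouse 1 was the lowest in each genotype for both, and the log2 ratio Nap1l5/Herc3 was 1.08 ± 0.23 in WT and 1.23 ± 0.02 in KO (exact permutation p = 0.4). Apart from these pairs stand Impact and Trappc9, each the only measured gene of its cluster. Impact, a translational regulator, was at 58.3, 131 and 139 TPM in WT and 97.5, 139 and 133 TPM in KO. Trappc9, a trafficking protein linked to intellectual disability, was at 35.3, 40.5 and 41.9 TPM in WT and 37.4, 40.5 and 38.6 TPM in KO. The groups overlapped for both.

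**Figure D4:**
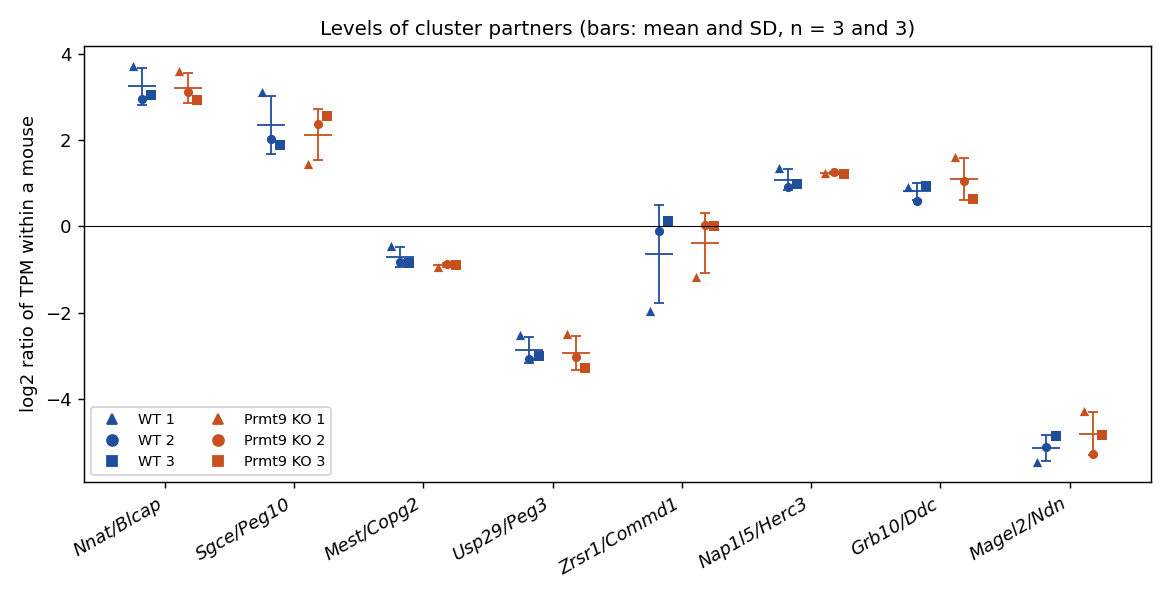
Log2 ratio of TPM of 8 pairs of cluster partners within each mouse, with the mean and SD of 3 WT (blue) and 3 Prmt9 KO mice (orange). The groups overlap in 7 pairs, and Mest/Copg2 lies between −0.45 and −0.85 in WT and between −0.86 and −0.95 in KO.

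Across the 8 pairs, the difference between genotypes ran from −0.22 (Sgce/Peg10) to 0.33 (Magel2/Ndn), and every adjusted p was 0.8 or 0.9.

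Starts of opposite or tissue-bound imprint were compared next, by summing transcripts whose annotated starts lay within 100 bases of the next (start group). In Gnas the exon 1A start group summed to 58.8, 88.4 and 79.0 TPM in WT and 52.8, 73.5 and 70.1 TPM in KO. The Gs-alpha group held 744, 968 and 988 TPM in WT and 951, 939 and 930 TPM in KO, 87.4% ± 0.765 and 87.0% ± 1.34 of the Gnas TPM with an annotated start. The Nesp start group lay between 1.0 and 1.64 TPM and the XL group between 0.0595 and 0.129 TPM. Between 18.1% and 29.2% of the Gnas level in the deposited gene table lay in transcripts with no match in GENCODE M21 and could not be placed at a start, so that the shares and the tests of Gnas refer to the rest. Gnas as a gene stood at 1194, 1368 and 1377 TPM in WT and 1468, 1336 and 1341 TPM in KO, and the groups overlapped (edgeR unadjusted p = 0.97).

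**Figure D5:**
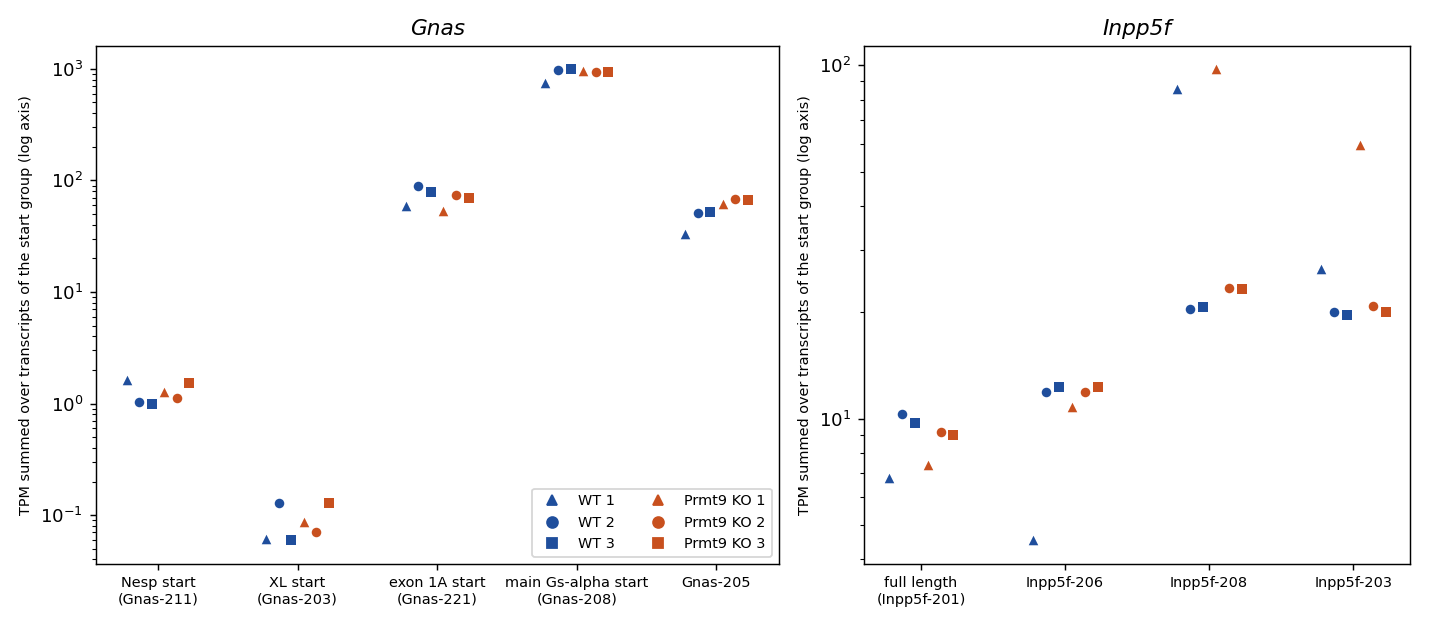
TPM summed by start group on log axes, 1 point per mouse, for Gnas (left) and Inpp5f (right). The Gnas groups range from the XL start at about 0.1 TPM to the Gs-alpha start at 744 to 988 TPM, and Inpp5f-208 is higher in both mice numbered 1 than in the others.

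Of 179 transcripts of imprinted genes tested, none was called (0.0% of 75682 transcripts in all) and 3 had an unadjusted edgeR p below 0.05 (1.61% of all). Gnas-205, a coding transcript of 730 bases and 4 exons that starts downstream of the Gs-alpha start, stood at 32.8, 51.0 and 52.4 TPM in WT and at 62.1, 68.1 and 67.2 TPM in KO. Every KO mouse lay above every WT mouse (0.51 ± 0.13, unadjusted p = 0.00761, adjusted p = 1.0). Gnas-221, the leading exon 1A transcript, was at 46.6, 65.4 and 59.1 TPM in WT and 38.9, 54.8 and 49.5 TPM in KO (−0.32 ± 0.12, unadjusted p = 0.0396), each KO mouse below the WT mouse of its number. Ube3a-204, a noncoding transcript, was at 0.324 to 0.344 TPM in WT and 0.0816 to 0.144 TPM in KO (−1.54 ± 0.52, unadjusted p = 0.0242). The adjusted p was 1.0 for each. With the replicate block 8 of the 179 had an unadjusted p below 0.05 (3.51% of all), with the term for mouse 1 12 did (6.2% of all), and none was called in either fit.

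The use of transcripts within a gene was tested for 26 imprinted genes and that of start groups for 25, by edgeR's diffSpliceDGE with a Simes test per gene. None passed an adjusted p of 0.01, against 0.17% and 0.0528% of all genes. None had an unadjusted p below 0.05 either, the smallest being 0.156 (Mest) and 0.188, against 1.72% and 1.17% of all genes. With the replicate block none was called (0.0959% of all genes for transcripts, 0.0264% for start groups), and 0 and 1 had an unadjusted p below 0.05 (2.48% and 1.79%). With the term for mouse 1 none was called either (0.383% and 0.114%), with 0 and 1 at that limit (3.62% and 3.17%). The gene was Usp29 in both fits. Shares of start groups were also compared mouse by mouse, for groups with a mean share of at least 5% in genes with at least 1 TPM in every mouse. In 7 of 60 groups the genotypes did not overlap (11.7%), against 9.05% of 29112 such groups over all genes. The main Mest group held 72.0%, 65.0% and 65.0% of the gene in WT and 56.5%, 61.3% and 50.6% in KO. The Gnas-205 group held 3.89%, 4.56% and 4.64% in WT and 5.78%, 6.25% and 6.23% in KO. The main Ube3a group stood at 56.6% ± 6.32 in WT and 49.4% ± 1.64 in KO, the main Cdkn1c group at 58.0% ± 2.52 and 51.3% ± 1.26, and the Grb10-207 group at 25.3% ± 2.39 and 18.3% ± 2.55. The exon 1A group of Gnas (7.29% ± 0.54 and 6.06% ± 0.992) and Herc3-205 (8.72% ± 0.0496 and 9.38% ± 0.373) completed the 7. Each had an exact permutation p of 0.1, the smallest possible, and with shares of estimated counts in place of TPM, 2 of 40 groups did not overlap, those of Cdkn1c and Ube3a (8.54% of all such groups). With starts joined within 500 bases, 5 of 51 did not (8.98% of all). They were the groups of Cdkn1c-201, of Mest-211 and of Grb10-207 joined with Grb10-209. The others were the exon 1A group of Gnas-221 joined with Gnas-212 and Gnas-218, and that of Gnas-208 joined with Gnas-205.

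Inpp5f, a phosphoinositide phosphatase, has in brain shorter paternal transcripts that begin inside the gene. As a gene it stood at 125, 66.5 and 66.6 TPM in WT and at 178, 69.0 and 68.5 TPM in KO (0.18 ± 0.52). The full-length start group lay between 6.81 and 10.3 TPM in all mice. Inpp5f-208, which starts inside the gene, was at 85.5, 20.4 and 20.7 TPM in WT and 97.3, 23.5 and 23.3 TPM in KO. Both mice numbered 1 lay far above the other 4. In Snrpn, Snrpn-201 carried 97.7% ± 0.854 of the gene in WT and 97.6% ± 0.913 in KO. Igf2-208, a noncoding transcript of 958 bases, was at 63.0, 22.4 and 31.8 TPM in WT and 62.3, 30.9 and 29.1 TPM in KO. The coding start group led by Igf2-201 was at 55.3, 41.5 and 54.6 TPM in WT and 50.5, 58.4 and 63.3 TPM in KO.

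The factors that set and keep imprints were present. Of 28 listed, all had values, 24 were at 1 TPM or more in every mouse, and Dppa3, a protector of the maternal genome in the egg, was at 0 in all. None of the 27 tested had an unadjusted edgeR p below 0.05 (1.23% of all genes), and 16 were above and 11 below 0 with a median log2 fold change of 0.01. With the replicate block 1 of the 27 passed that limit (5.73% of all genes), as it did with the term for mouse 1 (9.71%). This was Tet2, an oxidase of methylated cytosine, at 7.58, 15.6 and 15.8 TPM in WT and 12.9, 18.5 and 20.2 TPM in KO. Each KO mouse lay above the WT mouse of its number while the groups overlapped (0.44 ± 0.07 with the block, edgeR adjusted p = 0.791). Zfp57, which binds methylated imprinting control regions, lay between 31.0 and 56.6 TPM, and its partner Trim28 between 145 and 169 TPM. Of 43 further imprinted genes tested, beyond the 41, none had an unadjusted edgeR p below 0.05. With DESeq2 2 did (Klf14 and Slc22a2, 1.86% of all genes), with the replicate block 3 did (5.73%) and with the term for mouse 1 6 did (9.71%), at adjusted p of 1.0 for DESeq2 and of at least 0.791 and 0.377 for the others. The 3 with the block were Atp10a (0.50 ± 0.08), Sfmbt2 (0.32 ± 0.11) and Cdh15 (−0.93 ± 0.26). Without block or term, estimates were above 0 in 22 and below 0 in 21, with a median of 0.03.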

How the data were processed

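Poly(A) RNA of 6 hippocampi was sequenced with a stranded mRNA kit (paired ends). The authors quantified transcripts with kallisto (0.46.0 per the labels) and deposited, for each mouse, the estimated count and TPM of each transcript, and a gene table in TPM. STAR 2.7.1a, also listed by the submitters' processing notes with build GRCm38/mm10, made no value used here. The number of table columns without a sample was 0.

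Here, transcripts were matched by identifier to GENCODE M21 (116710 of 118783), a release that may differ from that of the index. Gene levels come from the deposited TPM table. Estimated counts were summed per gene, rounded and fitted with edgeR 4.0.16 (TMM, filterByExpr, genotype only, quasi-likelihood test) in R 4.3.3, over all genes. Transcripts and start groups were fitted in the same way. kallisto's estimation error was not modelled. Alternatives were DESeq2 1.42.0, its size factors, no filter, limma 3.58.1 on log2(TPM + 1) and log2(TPM + 0.1), a replicate block, a batch term for the mice numbered 1, shares from estimated counts or with starts joined within 500 bases, and leaving out each mouse.

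The mice numbered 1 deviated together in the data. Deviations from the genotype means correlated by 0.552, 0.417 and 0.378 for numbers 1, 2 and 3, all above 0.1. Deviations within a genotype cancel out, so the values for numbers 2 and 3 follow in part from mouse 1. WT mouse 2 with KO mouse 3 (0.409) and WT mouse 3 with KO mouse 2 (0.396) were as close, so numbers 2 and 3 were not told apart. The block pairs numbers 2 and 3 by label alone. What set the mice numbered 1 apart is not given in the labels, which also do not state which mice were littermates of each other. The batch term rests on earlier results of these data.

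The members, gene lists, marker lists and tests were chosen with earlier results of these data known. Values in every mouse are given for the highest member of each cluster, members with an unadjusted p below 0.05 or groups that do not overlap, members lying inside or opposite a partner, and Igf2, Snrpn, Ube3a, Gnas and Grb10. Dlk1, Cdkn1c, Mkrn3, Zfp57, Trim28, Dppa3, the list genes passing only in an alternative and the transcripts of Nnat, Inpp5f and Igf2 were added after their values were seen. On simulated counts of 20335 genes with dispersion 0.01, edgeR recovered 178 of 200 genes changed by 2-fold and 200 of 200 changed by 4-fold, with 1 and 0 false calls. At the dispersions estimated for the 20335 genes it recovered 0 and 125 of 200, drawn from all of them.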

Additional observations from a re-analysis of the deposited data

How the results depend on the processing

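At the level of genes, transcripts, transcript usage and start group usage, 0 imprinted features were called in the design reported and under every alternative run. The number of imprinted genes with an unadjusted p below 0.05 went from 0 to 4 with the replicate block, to 5 with a term for mouse 1 against the others, called batch term here (9.71% of all genes, smallest adjusted p 0.409), and to 0 to 1 when a mouse was left out. The median log2 fold change, 0.05, lay between 0.0 and 0.06 with a mouse left out and was 0.14 and 0.15 under limma with pseudocounts of 1 and 0.1. For transcripts the count went from 3 to 8 with the replicate block and to 12 with the batch term. For transcript usage it went from 0 to 2 without the filter and to 0 to 2 with a mouse left out. For start groups it was 1 without the filter, with the block and with the batch term, and 0 to 2 with a mouse left out. The replicate block changed no call at an adjusted p of 0.01, and its counts at the unadjusted limit for the other gene lists stand in the report. Start group shares that did not overlap numbered 7 of 60, 2 of 40 with estimated counts, 5 of 51 with starts joined within 500 bases and 9 to 15 of 60 with a mouse left out (14.6% to 27.5% of all such groups). Genes whose groups did not overlap numbered 1 of 33 and 1 to 7 with a mouse left out. They were 7 without WT mouse 1 (32% of all genes), 3 without KO mouse 1 (20.3%), 2 without WT mouse 3 (11.2%) and 1 when any other mouse was left out (10.3% to 11.2%). The sum over matched transcripts gave a WT mean of 1030 TPM for Gnas, by construction, and differed by less than 5% in the other 33 members.

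Of 299 log2 fold changes of the 23 genes named by rule, 256 kept their direction and 43 did not, all uncalled. Under limma, Ube3a was at 0.21 with a pseudocount of 1 and 0.22 with 0.1, Igf2r at 0.04 and 0.05, and Gnas, just below 0 in the design reported, at 0.07 with both. Without the filter Gnas was at 0.0. Mest kept its direction under limma but moved from −0.24 to −0.05 with both pseudocounts. With a mouse left out the ranges crossing 0 were Blcap −0.10 to 0.15, Commd1 −0.65 to 0.41, Dio3 −0.38 to 0.43, Gnas −0.05 to 0.03, Herc3 −0.11 to 0.08, Igf2 −0.12 to 0.34, Igf2r −0.12 to 0.08, Impact −0.07 to 0.11, Inpp5f −0.46 to 0.68, Nnat −0.34 to 0.34, Peg10 −0.24 to 0.43, Peg3 −0.16 to 0.18, Plagl1 −0.05 to 0.27, Sgce −0.02 to 0.05, Snrpn −0.01 to 0.14, Ube3a −0.17 to 0.07, Usp29 −0.03 to 0.19 and Zrsr1 −0.04 to 0.20. For the log2 ratios of partners they were Nnat/Blcap −0.22 to 0.21, Sgce/Peg10 −0.44 to 0.17, Usp29/Peg3 −0.29 to 0.10 (0.01 with estimated counts) and Zrsr1/Commd1 −0.39 to 0.67. The cause of these changes was not tested. With 3 mice per genotype and the dispersions of all genes tested, differences of 2-fold were not recovered on simulated counts. The changed genes were drawn from all genes, and the imprinted genes were not simulated as a set.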
